A study of Mus musculus with 8 samples.

Results

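Mature miRNAs of blood and endothelial cells were followed in mesenchymal stromal cells (MSCs) of the pancreas (pMSCs) and of inguinal white adipose tissue (iWAT; iwatMSCs). They are mmu-miR-126a-3p and mmu-miR-126a-5p of endothelium, and mmu-miR-142a-3p, mmu-miR-142a-5p, mmu-miR-150-5p, mmu-miR-223-3p, mmu-miR-451a, mmu-miR-144-3p and mmu-miR-486a-5p of blood cells, written below without the mmu prefix for mouse. These 9 of 1624 mature names were picked by name as miRNAs of blood and endothelial cells, and not by a cut-off on their values. Earlier results of these data were known when they were chosen. The sort discards cells with CD45, a marker of leukocytes, or CD31, a marker of endothelial cells, and keeps cells with SCA1. Mature red cells carry neither CD45 nor CD31, and whether any were kept with the SCA1 cells was not measured.

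Both cell types came from the same male C57BL/6J mice of 8 weeks on standard diet, with no treatment and no genetic change. Cells negative for CD45 and CD31 and positive for SCA1 were sorted, cells of 3 to 5 mice were pooled, and each pool was grown for 4 days before small RNA was sequenced. There are 4 libraries of pMSCs (5 to 8) and 4 of iwatMSCs (13 to 16), which the labels do not tie to animals, so pools of both tissues may share mice and the p-values measure only the spread between these pools. Unsorted tissue and freshly sorted cells were not analysed here, so the levels are those left after the sort and culture, and how much the sort removed was not measured.

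The libraries held 7789990 to 10538022 reads of mature miRNAs in pMSCs and 7956309 to 8830432 in iwatMSCs. The study left out 1 library as an outlier. Its means were matched for 58 of 58 miRNAs only when pMSCs library 7 was left out. In that library the value that the authors call TPM was 1 for 96.7% of the mature names with a read, against 10.9% to 15.8% in the other 7, while its 9236362 mature reads lay within the range of the others. Read counts were therefore tested over 7 libraries and again over all 8. Levels are CPM, read counts scaled to a common library size with TMM (trimmed mean of M values) factors over all 8 libraries. Mature miRNAs are of nearly the same length, so CPM is not divided by length. Log2 fold changes set pMSCs over iwatMSCs, and a miRNA is called at an adjusted p under 0.05 from edgeR's quasi-likelihood test, with Benjamini-Hochberg adjustment over all names tested.

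MicroRNAs are short RNAs that guide Argonaute proteins to mRNAs, mainly through the seed, bases 2 to 8 from the 5′ end. Some are made in so few cell types that they serve as markers. miR-142 is abundant in nearly every blood cell lineage, miR-223 in neutrophils and other myeloid cells, and miR-150 in mature lymphocytes. miR-144 and miR-451a are cut from a shared primary transcript under GATA1 control in red cell precursors, and miR-486 is abundant in red cells and in muscle. miR-126 lies within Egfl7, a gene of endothelial cells, and supports VEGF signalling by restraining Spred1.

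RefSeq (GRCm38.p6) holds the mature sequence of 6 of the 9. They are shown, 5′ to 3′, with the seed in capitals, because the read counts below rest on telling these short sequences apart:
miR-126a-3p: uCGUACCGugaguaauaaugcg
miR-142a-3p: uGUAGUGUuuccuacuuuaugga
miR-142a-5p: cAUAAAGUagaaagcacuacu
miR-223-3p: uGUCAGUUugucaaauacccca
miR-451a: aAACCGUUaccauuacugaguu
miR-144-3p: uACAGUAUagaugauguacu
No seed is shared within the 6, and 0 other mature names of the RefSeq table carry any of these seeds. Their places on GRCm38.p6 are chr2:26591402-26591423 for miR-126a-3p, chr11:87756903-87756925 for miR-142a-3p, chr11:87756867-87756887 for miR-142a-5p, chrX:96242884-96242905 for miR-223-3p, chr11:78073186-78073207 for miR-451a and chr11:78073047-78073066 for miR-144-3p, all on the plus strand. The build to which the small RNA reads were aligned is not given in the sources used here. In GENCODE M21, Mir126a overlaps an annotated exon of Egfl7 on chromosome 2, Mir142 lies in an intron of its host RNA Mir142hg, Mir223 overlaps an exon of F630028O10Rik, and Mir486 lies in an intron of the red cell ankyrin gene Ank1 on chromosome 8. Mir144 and Mir451a lie 99 bases apart on chromosome 11.

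Between pMSCs and iwatMSCs, edgeR called none of these miRNAs, and DESeq2 called miR-150-5p and miR-223-3p lower in pMSCs. Of the 9, 8 passed the filter (either tissue averaging 1 read or more), and edgeR called 0 of these 8 higher and 0 lower, with 7 libraries and with all 8. Of all 1244 names tested with 7 libraries, 5.39% were called, 2.65% higher and 2.73% lower in pMSCs. With 8 libraries 6.45% of 1241 names were called, 3.46% higher and 2.98% lower. At an unadjusted p under 0.05 there were 3 of the 8 (miR-142a-3p, miR-150-5p and miR-223-3p), all with a negative log2 fold change, against 15.8% of all names in either direction and 7.96% below 0. With 8 libraries there were also 3 of the 8, against 18.3% of all names in either direction and 8.46% below 0. With 7 libraries DESeq2 called 2 lower and 0 higher, and gave no adjusted p to miR-142a-3p and miR-144-3p. Of the 801 names to which it gave an adjusted p, it called 14.9%, 7.62% higher and 7.24% lower. miR-142a-3p, with 0 reads in pMSCs, passed the filter only through iwatMSCs, so that its direction was fixed by the filter. Without it, 2 of 7 had an unadjusted p under 0.05 in edgeR, with 7 libraries and with all 8. The median log2 fold change was -0.52 for the 8, -0.36 for the 7 without miR-142a-3p and -0.08 for all 1244 names. In bulk libraries fewer cells of a type and less RNA per cell cannot be told apart.

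**Figure D1:**
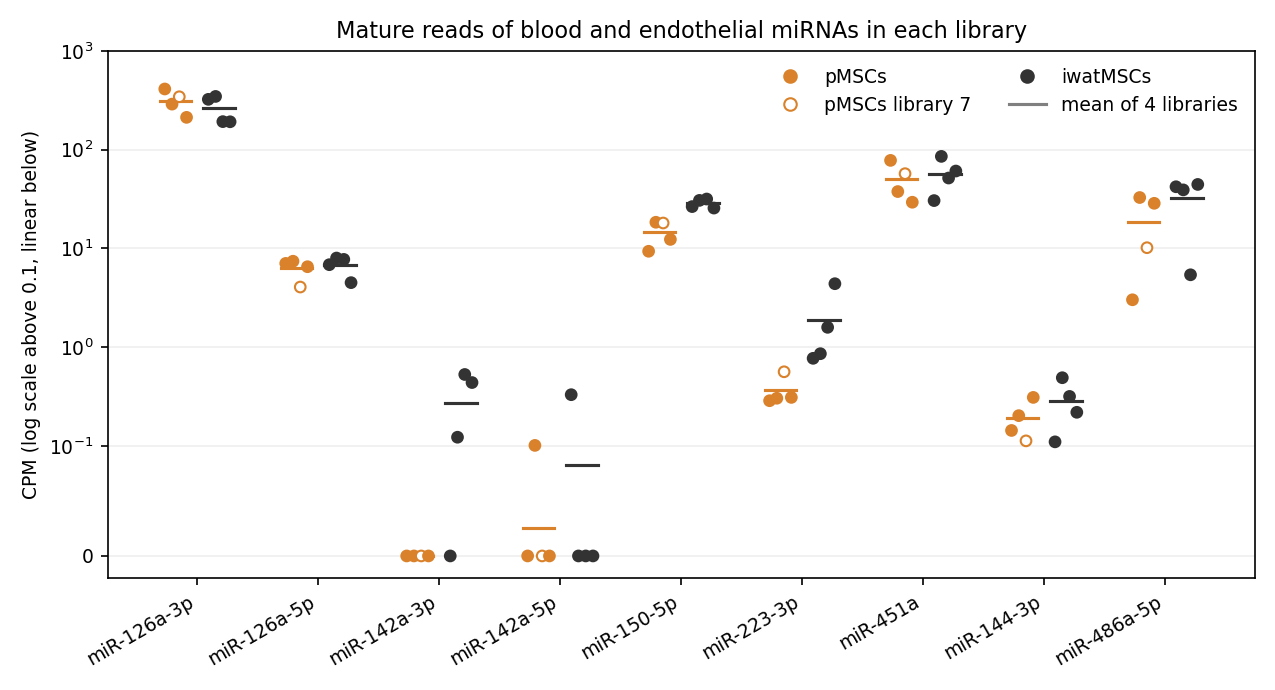
Level of each miRNA in CPM (y axis, logarithmic above 0.1 and linear below) in every library, with pMSCs in orange at the left of each pair, pMSCs library 7 as an open circle, iwatMSCs in black, and a line at the mean of 4 libraries. miR-126a-3p stood between 191 and 410.4 CPM in both tissues, and miR-142a-3p was at 0 reads in all 4 pMSCs libraries. For miR-150-5p and miR-223-3p every pMSCs library lay below every iwatMSCs library, as for 6.77% of all names.

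The leukocyte miRNA miR-142a was all but missing. miR-142a-3p had 0, 0, 0 and 0 reads in pMSCs libraries 5 to 8, and 0, 1, 5 and 4 reads in iwatMSCs libraries 13 to 16. Its mature-row reads were thus confined to 3 iwatMSCs libraries, and the tissues overlapped at 0. The highest level was 0.531 CPM in iwatMSCs library 15 (95% exact binomial interval 0.172 to 1.24, which covers counting error only). A count of 0 allows up to 0.0850 CPM over the 4 pMSCs libraries (3 reads over the tissue), and the pooled iwatMSCs level was 0.280 CPM (95% exact Poisson interval 0.134 to 0.515). The pooled iwatMSCs level was thus 3.29-fold above that floor, and its lower limit 1.58-fold above it. Over the 3 pMSCs libraries without library 7 these values were 2.47-fold and 1.18-fold. The exact Poisson intervals of the tissues did not overlap with 4 pMSCs libraries (upper limit 0.105 CPM) but did with 3 (upper limit 0.140 CPM). These intervals pool the reads of a tissue and leave out the spread between libraries, so they are no test of a tissue difference. edgeR did not call it (adjusted p = 0.310 with 7 libraries and 0.220 with 8).

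miR-142a-5p, the other arm of that hairpin, had 0, 1, 0 and 0 reads in pMSCs and 3, 0, 0 and 0 in iwatMSCs. With 4 reads in 8 libraries it fell under the filter, and both tissues were at or under the floor of 3 reads. miR-142b, made from the opposite strand of the same place, had 0 reads in every library. The log2 ratio of the 5p to the 3p arm of miR-142a (1 read added to each) differed between pMSCs and iwatMSCs by 1.23, from counts of 5 or fewer per arm (two-sided exact permutation p = 0.314, adjusted over the 2 hairpins compared 0.371; the smallest p that 4 against 4 allow is 0.0286).

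miR-223-3p, which restrains neutrophil activation, was also close to the floor. It had 2, 3, 5 and 3 reads in pMSCs libraries 5 to 8, or 0.288, 0.305, 0.565 and 0.311 CPM, and 7, 7, 15 and 40 reads in iwatMSCs libraries 13 to 16, or 0.773, 0.861, 1.59 and 4.397 CPM. Every pMSCs library was below every iwatMSCs library, and iwatMSCs library 16 stood far above the rest. Over all names, 6.77% had all 4 pMSCs libraries below all 4 iwatMSCs libraries. With 7 libraries miR-223-3p differed by -2.65 on the log2 scale (standard error 0.78, edgeR adjusted p = 0.131), and with 8 by -2.33 (adjusted p = 0.0829). Without iwatMSCs library 16 the difference shrank to -1.79 (adjusted p = 0.295 from edgeR). DESeq2 called it (adjusted p = 0.0400; 0.0400 to 0.335 over all alternatives).

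miR-150-5p, a lymphocyte miRNA that restrains the transcription factor Myb, was the blood marker nearest to a call. It had 65, 181, 160 and 119 reads in pMSCs libraries 5 to 8, or 9.36, 18.4, 18.1 and 12.3 CPM, and 240, 249, 298 and 233 reads in iwatMSCs libraries 13 to 16, or 26.5, 30.6, 31.6 and 25.6 CPM. The tissues did not overlap, as for 6.77% of all names with all pMSCs libraries lower. The iwatMSCs libraries lay within a narrow range, and pMSCs library 5 was the lowest of all 8. Means were 13.4 ± 4.61 CPM in pMSCs (SD, n = 3) and 28.6 ± 2.98 CPM in iwatMSCs (SD, n = 4). The log2 fold change was -1.14 (standard error 0.27, 95% interval -1.76 to -0.52, adjusted p = 0.0511 from edgeR), which missed the threshold, and with 8 libraries it was -0.97 (adjusted p = 0.0591). DESeq2 called miR-150-5p (adjusted p = 0.000574), as did edgeR on known miRNAs alone (adjusted p = 0.0394), on names with a mean of at least 10 reads (0.0346), with names of 1 sequence summed (0.0488) and without pMSCs library 6 (0.0441). Over all alternatives its adjusted p ran from 0.000574 to 0.215 and its log2 fold change from -1.41 to -0.94. The other arm, miR-150-3p, had 0 reads in every pMSCs library and 5 in iwatMSCs, of which 4 were in library 14.

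**Figure D2:**
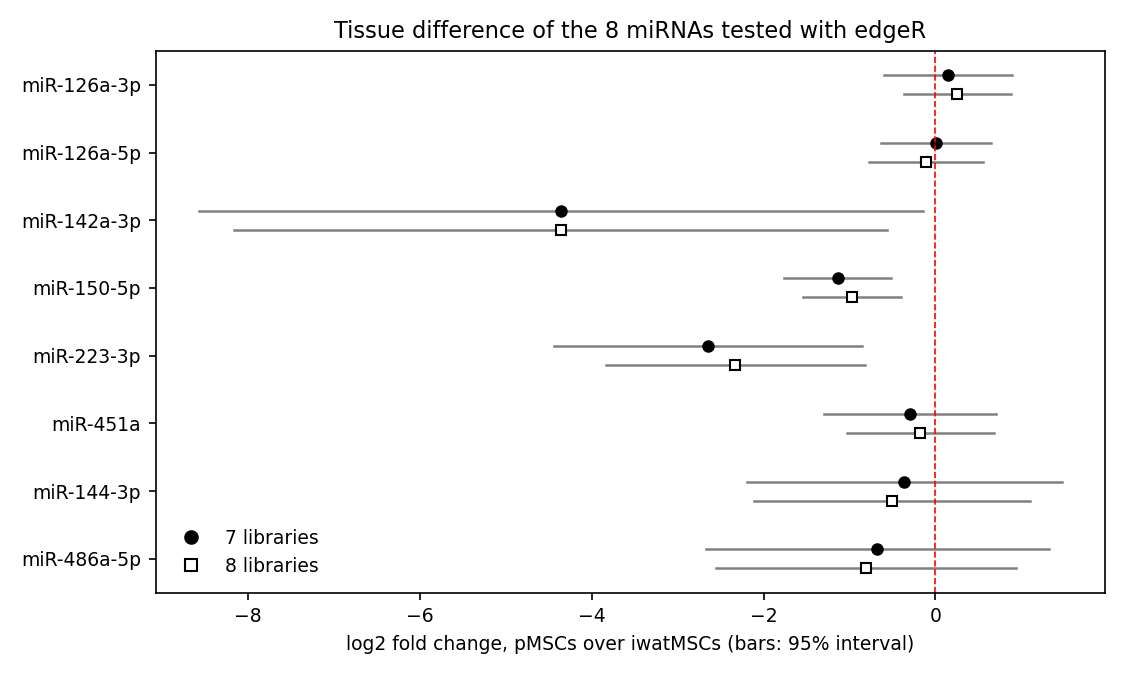
Log2 fold change of pMSCs over iwatMSCs (x axis) for the 8 miRNAs tested with edgeR, with 7 libraries (filled circles) and with all 8 (open squares), and 95% intervals as bars. The intervals of miR-142a-3p, miR-150-5p and miR-223-3p lie below 0 before adjustment for the number of names, and the other 5 cross 0.

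The red cell miRNA miR-451a was present in every library. This miRNA is made without Dicer: Argonaute 2 cuts its short hairpin, and the mature RNA runs through the loop. The Mir451a hairpin (GRCm38.p6, chr11:78073170-78073241, plus strand) is shown with the mature part, bases 17 to 38, in capitals, and below it its neighbour Mir144 (chr11:78073005-78073070, plus strand) with miR-144-3p in capitals at bases 43 to 62, where the mature part stays on 1 arm:
Mir451a: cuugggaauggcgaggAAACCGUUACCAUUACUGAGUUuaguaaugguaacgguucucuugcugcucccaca
Mir144: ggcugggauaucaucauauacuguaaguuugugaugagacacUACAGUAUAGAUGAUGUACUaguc
miR-451a had 540, 370, 505 and 283 reads in pMSCs libraries 5 to 8, or 77.8, 37.6, 57.1 and 29.3 CPM, and 276, 694, 486 and 552 reads in iwatMSCs libraries 13 to 16, or 30.5, 85.4, 51.6 and 60.7 CPM. The tissues overlapped over nearly their whole ranges, and the spread within each tissue was larger than the gap between the means. miR-451a had a log2 fold change of -0.30 and a 95% interval of -1.30 to 0.70 (adjusted p = 0.761 from edgeR), and -0.18 with 8 libraries. Its sign turned without pMSCs library 8, where it was 0.02.

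miR-144-3p was far scarcer than its neighbour. It had 1, 2, 1 and 3 reads in pMSCs and 1, 4, 3 and 2 reads in iwatMSCs, and the tissues overlapped. That is 17 reads in all, against 3706 of miR-451a, from hairpins 99 bases apart, and miR-144-5p had 0 reads in every library. For miR-144-3p the log2 fold change was -0.36 with a 95% interval of -2.19 to 1.47 (adjusted p = 0.848 from edgeR), so the interval held differences in either direction. The sign turned without iwatMSCs library 14, where it was 0.04.

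miR-486a-5p had to be read together with miR-486b-5p, whose mature sequence is the same in mouse. miR-486a-5p alone had 21, 322, 90 and 276 reads in pMSCs libraries 5 to 8, or 3.02, 32.7, 10.2 and 28.6 CPM, and 381, 318, 51 and 404 reads in iwatMSCs libraries 13 to 16, or 42.1, 39.1, 5.41 and 44.4 CPM. Libraries 5 and 15 were low, and the tissues overlapped. In the same libraries miR-486b-5p had 26.4, 6.30, 23.4 and 3.11 CPM in pMSCs and 6.30, 15.5, 47.6 and 13.5 CPM in iwatMSCs, so that it was high where miR-486a-5p was low. The share of the reads that went to the miR-486a-5p name was 10.3%, 83.9%, 30.3% and 90.2% in pMSCs and 87.0%, 71.6%, 10.2% and 76.7% in iwatMSCs. The Wilson 95% intervals of the low shares were 6.83% to 15.2% in library 5 and 7.84% to 13.2% in library 15, so the split differed between libraries of the same tissue by far more than counting error.

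Summed over both names, the level was even within each tissue: 29.4, 39.0, 33.6 and 31.7 CPM in pMSCs and 48.4, 54.6, 53.1 and 57.9 CPM in iwatMSCs. All pMSCs libraries then lay below all iwatMSCs libraries, as for 6.77% of all names taken singly. For the sum the log2 fold change was -0.73, with a standard error of 0.20 (edgeR adjusted p = 0.0829 over 1237 names), against -0.68 (standard error 0.87, adjusted p = 0.726) for miR-486a-5p alone. The sum was not called, but its standard error was smaller than that of the single name. The passenger arm miR-486a-3p, at 4.32 to 9.23 CPM in pMSCs and 5.41 to 13.9 CPM in iwatMSCs, was not called either (adjusted p = 0.644 from edgeR).

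**Figure D3:**
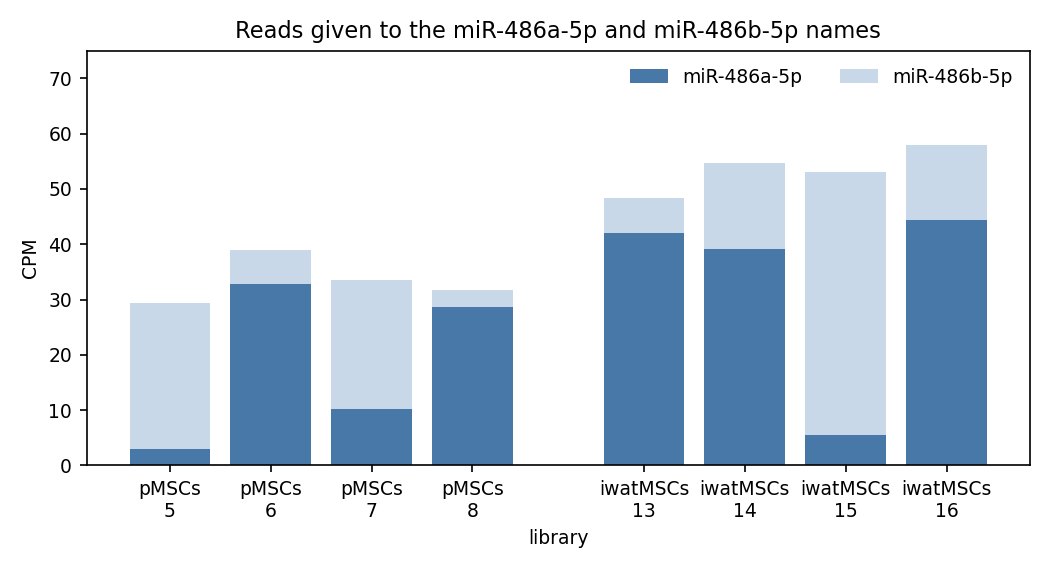
Level in CPM (y axis) of miR-486a-5p (dark) and miR-486b-5p (light), stacked, in each library (x axis). The dark share changes from library to library, as from 10.3% in pMSCs library 5 to 90.2% in pMSCs library 8, while the full height is 29.4 to 39.0 CPM in pMSCs and 48.4 to 57.9 CPM in iwatMSCs.

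The endothelial miRNA miR-126a-3p was the most abundant of the 9. It had 2850, 2837, 3030 and 2044 reads in pMSCs libraries 5 to 8, or 410.4, 288, 342 and 212 CPM, and 2919, 2805, 1808 and 1739 reads in iwatMSCs libraries 13 to 16, or 322, 345, 192 and 191 CPM. The tissues overlapped, and within iwatMSCs libraries 13 and 14 stood above libraries 15 and 16. Means were 303.6 ± 100.1 CPM in pMSCs (SD, n = 3) and 263 ± 82.6 CPM in iwatMSCs (SD, n = 4). The log2 fold change was 0.15 with a 95% interval of -0.60 to 0.89 (adjusted p = 0.848 from edgeR) and 0.25 with 8 libraries. Its sign turned without pMSCs library 5, where it was -0.13.

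miR-126a-5p, the passenger arm, which restrains Dlk1 in mouse endothelium, was far scarcer. It had 7.06, 7.42, 4.07 and 6.53 CPM in pMSCs and 6.85, 8.00, 7.75 and 4.51 CPM in iwatMSCs, and the tissues overlapped. The log2 fold change was 0.01 with a 95% interval of -0.63 to 0.65. There were 58.2, 38.9, 84.2 and 32.4 reads of the 3p arm for each read of the 5p arm in pMSCs and 47.1, 43.2, 24.8 and 42.4 in iwatMSCs. The 3p arm thus led in all 8 libraries, and the log2 ratio of 5p to 3p was -5.61 ± 0.61 in pMSCs and -5.23 ± 0.42 in iwatMSCs (SD, n = 4 each; two-sided exact permutation p = 0.371, adjusted over the 2 hairpins 0.371). miR-126b-3p, from the opposite strand of the miR-126a hairpin, had 3.73 to 4.04 CPM in pMSCs and 1.80 to 3.09 CPM in iwatMSCs. Its libraries did not overlap, as for 6.93% of all names with all pMSCs libraries higher, and edgeR did not call it (log2 fold change 0.82, unadjusted p = 0.0404, adjusted p = 0.296). Whether the counting used strand is not given in the sources used here, and without it reads from the 2 strands cannot be told apart.

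The 9 arms covered a wide span of abundance. By mean CPM over 4 libraries, miR-126a-3p ranked 112 among the 1340 mature names with a read in pMSCs and 127 among 1398 in iwatMSCs. miR-451a ranked 229 and 227, miR-486a-5p 310 and 260, miR-150-5p 337 and 281 and miR-126a-5p 421 and 425. Far below came miR-223-3p at 851 and 581 and miR-144-3p at 988 and 906. miR-142a-5p ranked 1306 and 1161, and miR-142a-3p had no reads in pMSCs and ranked 923 in iwatMSCs. The rank of miR-486a-5p is that of the single name. Summed with miR-486b-5p, at 29.4 to 39.0 CPM in pMSCs and 48.4 to 57.9 CPM in iwatMSCs, it lay above miR-150-5p in every library, and its range overlapped that of miR-451a in both tissues. Summed, the 9 took 0.0299% to 0.0453% of the mature reads in pMSCs and 0.0319% to 0.0469% in iwatMSCs. The 7 blood miRNAs alone summed to 70.9 to 90.6 CPM in pMSCs and 91.0 to 156.6 CPM in iwatMSCs. That sum leaves out miR-486b-5p, so it depends on the uneven split of reads between the miR-486 names. The erythroid names, with both miR-486 names, summed to 71.8 to 114 CPM in pMSCs and 86.4 to 148 CPM in iwatMSCs, and overlapped. The 2 arms of miR-126a summed to 218 to 417.5 CPM in pMSCs and 196 to 353 CPM in iwatMSCs.

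**Figure D4:**
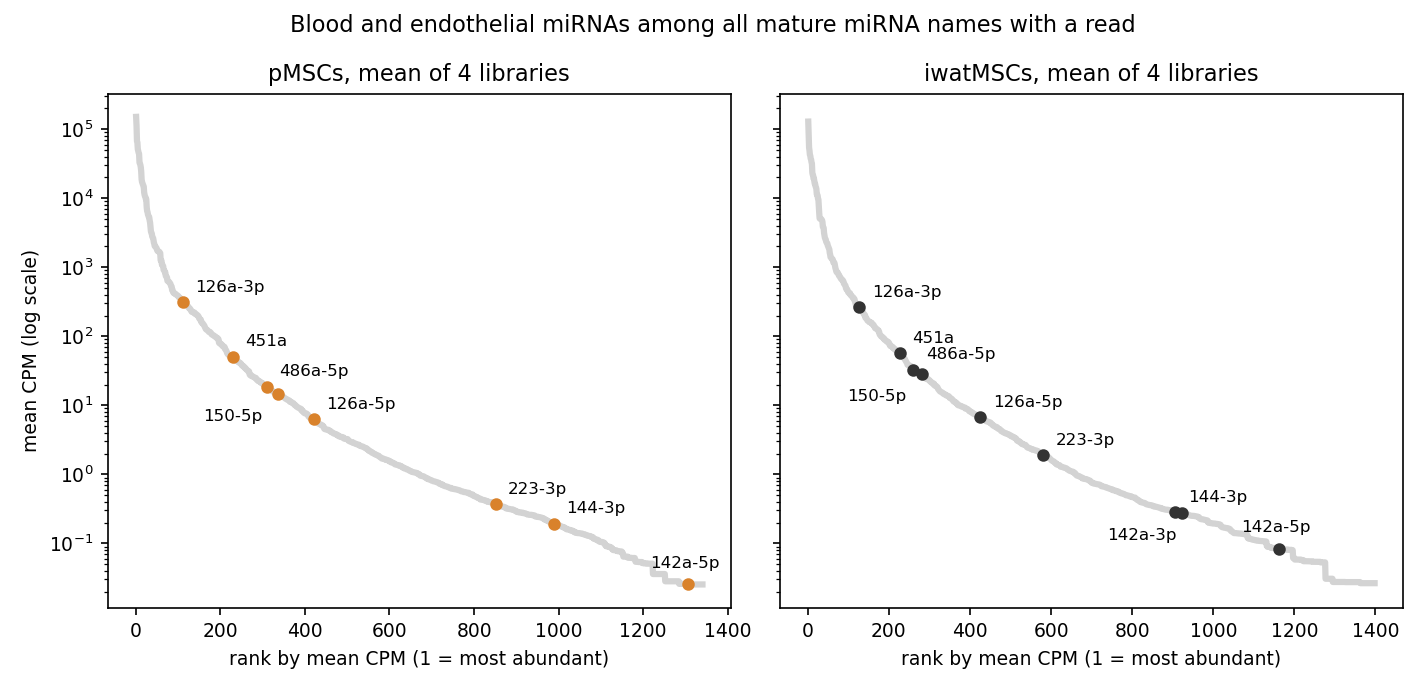
Mean CPM over 4 libraries (y axis, log scale) against rank (x axis) for all mature miRNA names with a read, as a grey line, with the 9 miRNAs as points (names without the miR prefix), in pMSCs at the left and iwatMSCs at the right. miR-126a-3p and miR-451a sit in the upper part of both curves and miR-142a-5p in their lower part. miR-142a-3p ranks 923 in iwatMSCs and is missing from the pMSCs panel, where it had 0 reads.

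The deposited table also has rows of type hairpin under the same names, which were not used above. Most of the miR-451a reads stood there: 2285, 2009, 2038 and 1616 in pMSCs and 1721, 3622, 2499 and 3225 in iwatMSCs. That is 5.13 hairpin-row reads for each mature-row read over all libraries, 38th from the top among the 540 known arms with at least 100 mature reads, whose median was 0.676. For miR-126a-3p the ratio was 0.552, and it kept to 0.526 to 0.569 in pMSCs and 0.550 to 0.592 in iwatMSCs. For miR-150-5p it was 0.256. For miR-486a-5p it ran from 0.811 to 6.95 in pMSCs and from 0.0314 to 6.22 in iwatMSCs, as its hairpin rows were also split unevenly with miR-486b-5p. miR-142a-3p had 2, 1, 1 and 0 hairpin-row reads in pMSCs and 6, 1, 4 and 8 in iwatMSCs. miR-223-3p had 6, 6, 6 and 8 in pMSCs and 17, 6, 7 and 14 in iwatMSCs, so that in these rows the tissues overlapped. With both rows summed, a setting chosen after seeing the data, edgeR called 0 of the 9 (miR-150-5p adjusted p = 0.0546, miR-451a log2 fold change -0.46 with adjusted p = 0.546). For miR-223-3p the log2 fold change was then -1.59 (edgeR adjusted p = 0.160), against -2.65 from mature rows alone.

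**Figure D5:**
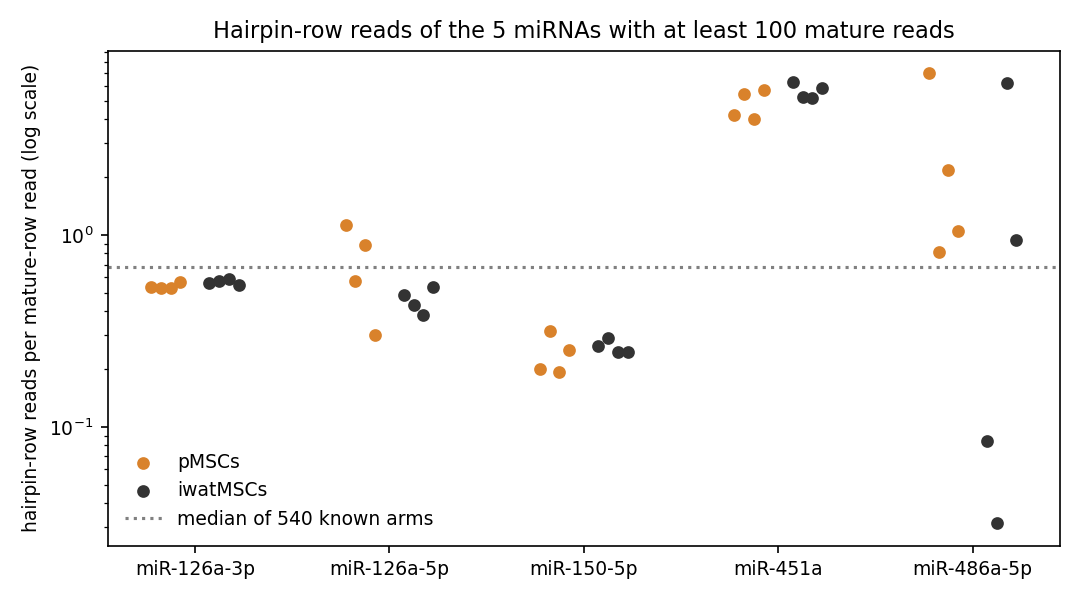
Hairpin-row reads for each mature-row read (y axis, log scale) in every library of pMSCs (orange, left) and iwatMSCs (black, right) for the 5 arms with at least 100 mature reads, with the median of 540 known arms, 0.676, as a dotted line. miR-451a lies between 4.04 and 6.24 in all 8 libraries, miR-126a-3p stays between 0.526 and 0.592, and miR-486a-5p is scattered.

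Other arms of the same lineages gave no call. Of 14 further names of leukocyte, lymphoid, myeloid, erythroid and endothelial miRNAs, 9 were tested and 0 were called higher or lower with either set of libraries or by DESeq2, with 1 at an unadjusted p under 0.05 (miR-126b-3p). Their median log2 fold change was -0.02. Of 6 inflammatory names, which leukocytes and activated stromal cells share, 4 were tested. Against 2.65% of all names, 1 of these was higher in pMSCs. This was miR-146a-5p, a brake on Toll-like receptor signalling, at 154 to 330 CPM in pMSCs and 57.7 to 72.0 CPM in iwatMSCs, a log2 fold change of 1.77 (adjusted p = 0.00488, edgeR). DESeq2 called 2 of the 4 inflammatory names higher, against 7.62% of the names to which it gave an adjusted p.

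Markers of other cells gave the frame for these levels. The 5 mesenchymal names (miR-199a-3p, miR-199a-5p, miR-214-3p, miR-143-3p and miR-145a-5p) summed to 58550 to 72344 CPM in pMSCs and 36707 to 46926 CPM in iwatMSCs. edgeR called 2 of the 5 higher in pMSCs (miR-143-3p and miR-145a-5p) and 0 lower, against 2.65% and 2.73% of all names. DESeq2 called 2 higher and 1 lower, against 7.62% and 7.24% of the names to which it gave an adjusted p. All 5 had an unadjusted p under 0.05 in edgeR, 3 of them with a negative log2 fold change. Of all names, 15.8% had such a p, and 7.96% had it with a negative log2 fold change. miR-199a-3p, 1 of the 3 with a negative log2 fold change, differed widely between the libraries within iwatMSCs. Whether its reads were split between names, as for miR-486, was not tested, and the mesenchymal sum includes it. Of 4 acinar names, 4 were higher in pMSCs (10.7 to 56.9 CPM summed in pMSCs and 0.330 to 0.738 CPM in iwatMSCs). Of 5 epithelial names of the miR-200 family, 5 were higher (235 to 584 CPM in pMSCs and 12.3 to 20.05 CPM in iwatMSCs). Over all names, edgeR called 2.65% higher with 7 libraries. miR-217-5p and miR-141-3p, with 1 and 3 reads in iwatMSCs, passed the filter only through pMSCs, so that their direction was fixed by the filter. Of 4 muscle names, 3 were tested and 0 called. The part of these cells in the levels of the blood and endothelial miRNAs was not tested. Among 357 known miRNAs with a mean of at least 10 CPM, those most like miR-126a-3p over the 8 libraries, after the mean of each tissue was taken off log2(CPM + 1), were miR-93-5p (Pearson r = 0.97), let-7c-5p (0.96) and let-7f-5p (0.92). For miR-451a, the most abundant blood marker, they were miR-200a-3p (0.87), miR-122-5p (0.83) and miR-3109-3p (0.76). These values describe 8 libraries that share total depth and scaling. Between miR-126a-3p and miR-451a the same measure was 0.44.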

How the data were processed

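Small RNA of sorted, cultured pMSCs and iwatMSCs was sequenced by BGI from libraries with unique molecular identifiers. The authors deposited a read count for every small RNA and library, and the submitters' processing notes name Bowtie2 without a version. The genome build and miRBase release are not given in the sources used here. The score that the authors call TPM is a whole number, with 0.001 for 0, is not scaled to a common total, and served only in alternatives. Rows of type mature were tested with edgeR 4.0.16 in R 4.3.3 (TMM, two-sided quasi-likelihood F test on tissue alone, names that average 1 read or more in either tissue), without pMSCs library 7 and with it. Standard errors were derived from the log2 fold change and the F statistic, and intervals are approximate. Arm ratios were compared with exact permutation tests over 8 libraries (scipy 1.17.1, numpy 2.4.6, pandas 2.3.3, Python 3.11.15), and figures were drawn with matplotlib 3.10.9. The floor is 3 reads. The fits were tested on simulated data. Alternatives were limma 3.58.1 on log2 of the TPM, DESeq2 1.42.0 and those named in the closing section. The 9 miRNAs and the marker lists were chosen with earlier results of these data known. All 9 are named, and other list names could be named, with values only for other arms of these hairpins and for names called. miR-126b-3p, miR-142b, miR-144-5p and miR-486b-5p were added after their values were seen. For the most abundant endothelial and blood miRNA, the 3 nearest in pattern were taken by Pearson correlation.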

Additional observations from a re-analysis of the deposited data

Results flagged for a closer look

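In 5 of 23 groups of 4 libraries, 1 library stood apart from the other 3 by Dixon's test. Chance gives this for about 1 in 20 groups only where values are continuous and normal. Where the other libraries are all at 0, a single read is enough, so the count of flags cannot be set against that rate. miR-486a-5p in iwatMSCs library 15 was at 5.41 CPM, against 39.1 to 44.4 CPM in the other iwatMSCs libraries, and the sum with miR-486b-5p in that library (53.1 CPM) was within the range of the others. miR-223-3p in pMSCs library 7 was at 0.565 CPM (5 reads), against 0.288 to 0.311 CPM in the other pMSCs libraries. miR-142a-5p was at 0.102 CPM in pMSCs library 6 (1 read) and at 0.331 CPM in iwatMSCs library 13 (3 reads), with 0 in the other libraries of each tissue. The log2 ratio of the arms of miR-142a in pMSCs library 6 was 1, against 0 in the other pMSCs libraries, from the same single read.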

How the results depend on the processing

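The count of the 9 miRNAs called higher in pMSCs was 0 under every alternative. The count called lower was 1 with names above a mean of 10 reads, 1 with known miRNAs only, 1 with names of 1 sequence summed, and 2 with DESeq2. It ran from 0 to 1 when each of the 7 libraries was left out (1 without pMSCs library 6). It stayed 0 with all 8 libraries, with DESeq2 size factors, with limma on log2(TPM + 1), log2(TPM + 0.5) and log2(TPM + 5), with no filter, and with mature and hairpin rows summed, the last chosen after seeing the data. Over all names, DESeq2 called 61 higher and 58 lower in pMSCs, against 33 and 34 with edgeR, and with a library left out 24 to 34 were higher and 18 to 31 lower. None of the 8 tested reversed as a call. Changes of sign without a call were 3 for miR-126a-5p and 1 each for miR-126a-3p, miR-451a and miR-144-3p. No comparison of arm ratios passed 0.05 with another number of reads added to each arm. Every other alternative left a library out. Too few permutations then remain for a p under 0.05, so these alternatives could not pass it. The lowest p there was 0.0571 (exact permutation test), for miR-142a without iwatMSCs library 13. For the arm ratios in TPM, library 7 was left out. No paired analysis was possible because the libraries of the tissues share no number. Counts stayed under 10 reads in every library for both arms of miR-142a and for miR-144-3p, and in every pMSCs library for miR-223-3p. The cause of the differences between tools was not tested.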
